A study of Mus musculus with 16 samples.

Results

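The genes described here are 42 genes of the DNA damage response and of DNA repair, listed by symbol and followed across 4 genotypes of mouse mammary luminal cells. The list was set by gene function and not by a measured value, but earlier results of these data were known at the time. Each gene was read by the probe set that carries its symbol alone and has the highest mean over the 16 arrays. Of the 42 genes, 40 had such a probe set, and 38 of these passed the filter on low signals and were tested among 14410 genes of the 17097 measured. Trp53 and Xrcc2 had no probe set of their own in the annotation used and were not analysed here, and the probe sets of Prkdc and Lig4 lay below the filter.

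Luminal cells were sorted from mammary glands by flow cytometry, and their total RNA was hybridised to expression arrays, 1 array per sample and 4 samples per group. The p38a-lox PyMT group carried p38a-lox, MMTV-Cre and MMTV-PyMT, and its control, called PyMT, carried MMTV-Cre and MMTV-PyMT, both at 6 weeks of age. The p38a-lox group carried p38a-lox and MMTV-Cre, and its control carried MMTV-Cre alone, both at 9 weeks. All 4 groups therefore carried MMTV-Cre, a transgene in which a mammary tumour virus promoter drives Cre recombinase in mammary epithelium, and PyMT is the polyoma middle T antigen under the same promoter, which causes mammary tumours. PyMT status and age changed together, so their effects cannot be told apart. The labels do not say whether each array is a separate animal, so p-values measure the spread between these samples.

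Cells answer DNA damage in layers. The kinases Atm and Atr sense breaks and stalled replication forks and signal through Chek2 and Chek1 to arrest the cell cycle and to stabilise p53, which Mdm2 and Mdm4 hold in check. Broken ends are joined by homologous recombination (Brca1, Brca2, Palb2) or by end joining (Xrcc5, Xrcc6, Xrcc4), while damaged or mispaired bases are handled by base excision, mismatch and nucleotide excision repair.

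Promoters are shown for Xrcc6, Mdm2 and Mdm4, the 3 genes for which the p38a-lox difference passed a test of change between arrays with lower and higher numbers in their titles. The windows are the 250 bases before the annotated start, 5′ to 3′ on the gene's strand, from RefSeq for GRCm38.p6. They lie at chr15:82016119-82016368 on the plus strand for Xrcc6, at chr10:117710759-117711008 on the minus strand for Mdm2 and at chr1:133025417-133025666 on the minus strand for 1 of the annotated starts of Mdm4. Capitals mark a match to the E2F letters TTTCCCGC, TTTCGCGC, TTTGCCGC or TTTGGCGC, or to the letters CCAAT, on either strand.
Xrcc6: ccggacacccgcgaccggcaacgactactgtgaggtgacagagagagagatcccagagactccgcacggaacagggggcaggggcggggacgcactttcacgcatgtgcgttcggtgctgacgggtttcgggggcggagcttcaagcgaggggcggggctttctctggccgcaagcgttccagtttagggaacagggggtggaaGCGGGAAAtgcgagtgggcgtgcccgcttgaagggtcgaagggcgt
Mdm2: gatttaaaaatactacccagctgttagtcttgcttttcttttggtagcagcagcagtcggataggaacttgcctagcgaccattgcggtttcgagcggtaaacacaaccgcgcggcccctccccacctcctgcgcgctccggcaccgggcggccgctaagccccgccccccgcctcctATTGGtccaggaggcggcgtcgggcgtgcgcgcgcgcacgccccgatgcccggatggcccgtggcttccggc
Mdm4: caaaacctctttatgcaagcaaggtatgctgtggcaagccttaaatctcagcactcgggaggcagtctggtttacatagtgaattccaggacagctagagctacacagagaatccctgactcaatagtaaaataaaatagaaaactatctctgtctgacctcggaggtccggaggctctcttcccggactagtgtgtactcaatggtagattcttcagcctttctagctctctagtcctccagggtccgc
The Xrcc6 window held 1 E2F match, the Mdm2 window held 1 CCAAT match, and the searched letters were not in the Mdm4 window. Of the 42 genes, 35 matched an entry in the promoter table. The E2F letters were found in 4 of these 35 (11.4%; Brca2, Bard1, Chek2 and Xrcc6), against 2.16% of the 27025 genes with a window, and CCAAT in 17 (48.6%), against 37.5%. The p53 response element was searched as the letters RRRCWWGYYY, repeated after a short gap or none. In these letters R is A or G, W is A or T and Y is C or T. It was found in 0 of the 35, against 0.0666% of all genes with a window. At so low a share almost no match can be found in 35 genes, so this count does not set the listed genes apart. These counts describe letters in short windows and not binding.

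The luminal label was checked against marker genes. Over the 16 arrays the log2 signal was 12.14 to 12.54 for Krt8 and 11.91 to 12.28 for Krt18, both luminal keratins, and 10.93 to 11.99 for Epcam, an epithelial adhesion molecule, whereas the leukocyte antigen Ptprc lay at 2.71 to 3.14. The basal keratins Krt5 (6.30 to 11.52) and Krt14 (5.49 to 10.27) varied widely. Markers of other cells were not all low. The leukocyte marker Cd68 read 5.38 to 9.44, and the fibroblast markers Dcn and Col3a1 read 5.10 to 9.82 and 4.23 to 9.10. The adipocyte marker Fabp4 read 2.85 to 7.96, and the endothelial marker Pecam1 4.96 to 5.89. Signal from other cells was therefore not excluded by the low Ptprc values. Mapk14, the gene that encodes p38a, went against the labels in some arrays without PyMT. Its signal in p38a-lox arrays was 6.79, 6.37, 7.91 and 8.16, against 7.11, 7.43, 5.56 and 6.02 in MMTV-Cre arrays (difference 0.78 ± 0.42, adjusted p = 0.999 in limma). In the first 2 arrays of each group, whose titles carry lower numbers, both p38a-lox values lay below both MMTV-Cre values. In the last 2, with higher numbers, they lay above both. An exchange of labels in the higher range would turn the sign of every p38a-lox difference there, and whether one took place was not tested. In the comparisons that use arrays without PyMT, counts of called genes and the estimates of several genes are therefore also given with these 4 arrays left out. Marker lists, correlations and p53 targets are given only with these arrays included. In p38a-lox PyMT arrays Mapk14 was 7.09, 7.25, 7.34 and 7.24, against 7.17, 7.12, 7.64 and 6.88 in PyMT arrays. Mapk14 has 6 probe sets, of which only the one with the highest mean was read, and the values of the others are not given here. Which exons the probe set reads, relative to the floxed part, is not stated in the labels, and group names below are those of the labels.

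The comparison of p38a-lox with MMTV-Cre sets luminal cells labelled for loss of p38a, a stress-activated kinase, beside their control without the oncogene. A lower Mapk14 signal was not seen over the 4 p38a-lox arrays, so the comparison does not show which genes depend on p38a. None of the 38 repair and damage response genes passed the test in arrays labelled p38a-lox, in which 21 had higher and 17 lower estimates than in MMTV-Cre arrays. Their median difference was 0.02 on the log2 scale, beside 0.00 over all genes tested, and single estimates ran from -0.48 for Mdm2 to 0.69 for Xpc. In the limma fit 0% of all tested genes were called at an adjusted p under 0.05. At an unadjusted p under 0.05 stood 0 of the 38 genes, against 4.79% of all tested genes. The 4 arrays of 1 group lay wholly above or below those of the other for 0 of the 38, against 2.1% of all. With the 4 higher-range arrays left out, 0 of the 38 were called, against 0.104% of all tested genes, and 8 had an unadjusted p under 0.05, against 15.6%. In that fit 12 estimates were higher and 26 lower in p38a-lox, with a median of -0.22, and 15 of the 38 had the opposite sign.

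The smallest p belonged to Chek2, the kinase downstream of Atm. Its log2 signal was 4.56, 4.38, 4.72 and 4.39 in p38a-lox arrays, against 4.48, 3.86, 4.0004 and 4.44 in MMTV-Cre arrays. The values overlapped, with 2 low MMTV-Cre arrays, and the difference was 0.31 (95% interval -0.02 to 0.65, adjusted p = 0.999). Chek1, the kinase downstream of Atr, differed by -0.34 (-0.82 to 0.13), and Trp53bp1, a protein that binds chromatin at breaks, by 0.22 (-0.14 to 0.58). The less bright probe sets gave -0.17, -0.11, 0.14 and -0.01 for Chek1 and -0.15 and -0.09 for Trp53bp1. Xpc, which recognises distorted DNA in nucleotide excision repair, read 6.00, 4.86, 6.25 and 6.88 in p38a-lox arrays, against 5.55, 6.22, 4.41 and 5.05 in MMTV-Cre arrays. Its difference of 0.69 had an interval from -0.12 to 1.496, and the groups overlapped. Without the higher-range arrays the Xpc difference was -0.45. Xrcc3, a homologous recombination protein, differed by -0.19 (-0.52 to 0.14).

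Many of the genes had a wide spread inside the groups without PyMT. The median standard deviation of the 38 genes was 0.36 in p38a-lox arrays, beside 0.33 over all tested genes, and the widest in that group was Mdm2 at 1.41. The numbers in the sample titles fall into a lower and a higher range, each with 2 p38a-lox and 2 MMTV-Cre arrays. The arrays of the ranges did not overlap for 25 of the 38 genes in p38a-lox (65.8%, beside 53.2% of all tested genes) and for 18 in MMTV-Cre (47.4%, beside 45.6%). Lig3 and Rad50 in MMTV-Cre were among those that overlapped, with Lig3 at 10.29 and 8.08 in the lower and 8.75 and 10.35 in the higher range. No label says what these numbers stand for, and the split was examined after the data had been seen. Mdm2, the ubiquitin ligase that degrades p53, read 9.66 and 9.07 in the p38a-lox arrays of the lower range, against 8.59 and 8.74 in MMTV-Cre. In the higher range it read 6.87 and 7.05 in p38a-lox arrays, against 8.85 and 8.36 in MMTV-Cre. Mdm4, its partner in holding p53 in check, read 9.25 and 8.83 in the p38a-lox arrays of the lower range, against 7.82 and 7.58 in MMTV-Cre. In the higher range Mdm4 read 6.89 and 7.11 in p38a-lox arrays, against 8.11 and 7.69 in MMTV-Cre. For both genes the p38a-lox arrays lay above MMTV-Cre in the lower range and below it in the higher range. Xrcc6, the Ku70 subunit that binds broken ends, went the other way, with 4.91 and 4.93 in p38a-lox arrays, against 5.85 and 6.09 in MMTV-Cre arrays, in the lower range. In the higher range Xrcc6 read 6.18 and 6.66 in p38a-lox arrays, against 4.88 and 5.002 in MMTV-Cre arrays.

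**Figure D1:**
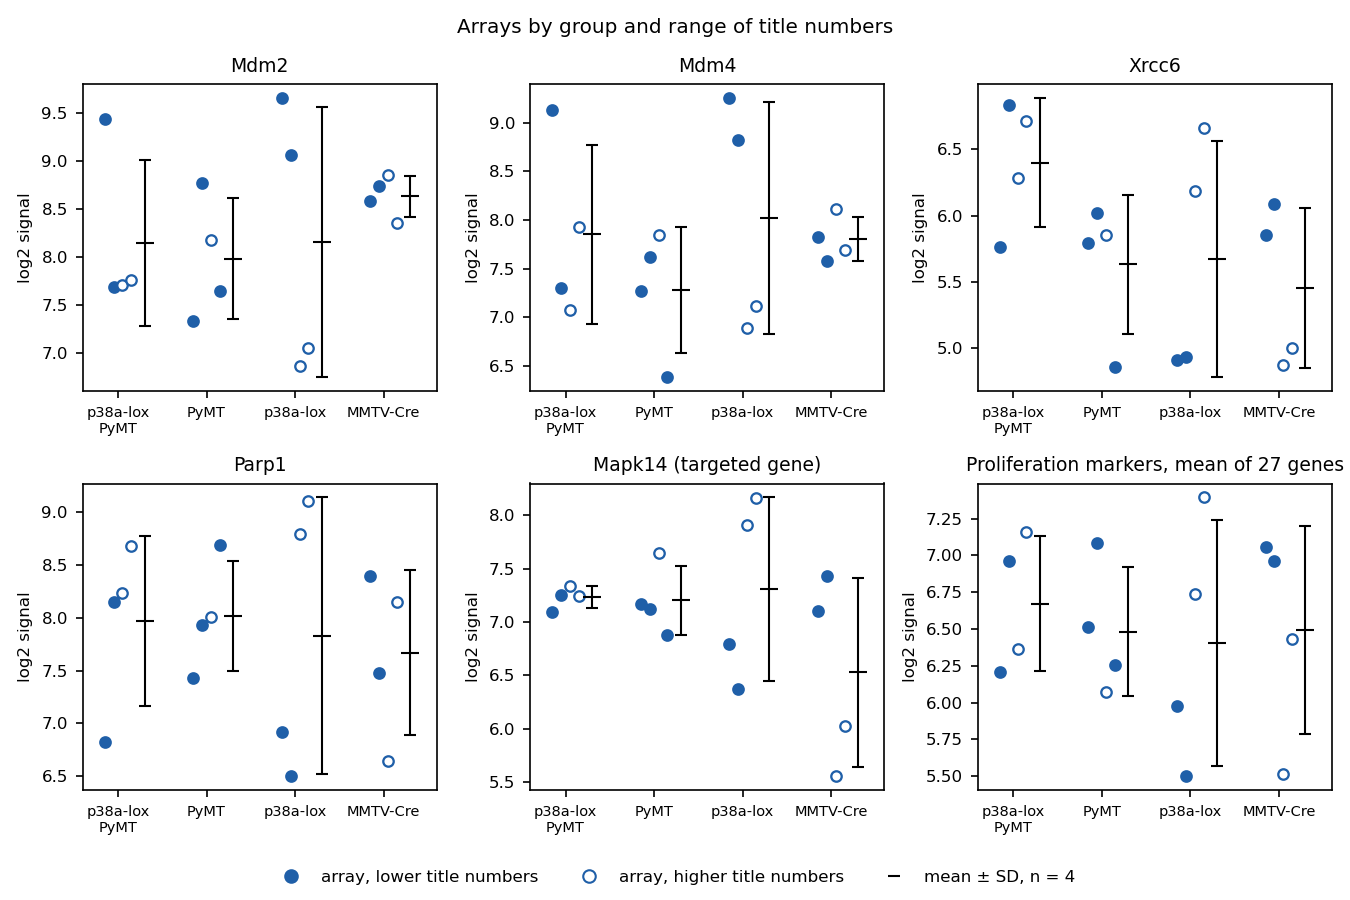
Log2 signal (vertical axes) of Mdm2, Mdm4, Xrcc6, Parp1 and Mapk14, and the mean of 27 proliferation markers, in the 16 arrays by group (horizontal axes); filled points are arrays with lower title numbers, open points those with higher numbers, and bars give the mean ± SD of 4 arrays. In p38a-lox arrays the filled and open points are separated in all 6 panels, with Mdm2 at 9.66 and 9.07 in the lower range and 6.87 and 7.05 in the higher.

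The difference between p38a-lox and MMTV-Cre therefore had opposite signs in the ranges for these genes. For Mdm2 it was 0.70 in the lower and -1.65 in the higher range, a change of -2.35 ± 0.38 (adjusted p = 0.0451 in limma on the 8 arrays without PyMT, 4 residual degrees of freedom). For Mdm4 it was 1.34 and -0.90 (change -2.24 ± 0.34, adjusted p = 0.0440), and for Xrcc6 -1.05 and 1.48 (change 2.53 ± 0.31, adjusted p = 0.0389). These 3 of 38 genes were called, against 1.86% of all tested genes, and 14 of 38 had an unadjusted p under 0.05, against 20.2% of all. Signs were opposite for 30 of 38 genes (78.9%), beside 64.6% of all tested genes. The targeted gene Mapk14 had differences of -0.69 and 2.24 (adjusted p = 0.0389), so the direction of the higher-range values rests on labels that Mapk14 went against.

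These 3 calls were not stable. None of the 38 genes was called with MMTV-Cre replicate 2, 3 or 4 or p38a-lox replicate 3 or 4 left out, and Mdm2 and Mdm4 were not called without p38a-lox replicate 1. None was called either with the mean of all probe sets, with eBayes trend and robust options, with array weights or with all 16 arrays in the fit. Over all 16 alternatives, those that kept a call included, the adjusted p ran from 0.0245 to 0.193 for Xrcc6, from 0.0318 to 0.193 for Mdm4 and from 0.0407 to 0.206 for Mdm2, and each estimate kept its sign. The less bright probe set of Mdm2 gave a change of -1.85. Of the other 3 probe sets of Mdm4, 1 gave -1.73 and the rest -0.02 and -0.18, and the other probe set of Xrcc6 gave 0.03.

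Opposite signs were also found for base excision, mismatch and nucleotide excision genes, none of which was called. Msh6, which recognises mismatches, had a difference of -1.38 in the lower and 0.56 in the higher range (adjusted p = 0.0525 for the change). Ung, the glycosylase that removes uracil from DNA, had -1.15 and 0.66 (adjusted p = 0.0574), and Lig1, the ligase that seals replicating DNA, had -1.45 and 0.99 (adjusted p = 0.0891). Parp1, the sensor of strand breaks, had -1.23 and 1.55, and Ddb2, which recognises ultraviolet damage, had -0.74 and 1.12. Of these excision repair genes Xrcc1, the scaffold of single-strand break repair, kept its sign (-0.52 and -0.26), as did Lig3 (0.69 and 0.38). Of the 8 homologous recombination genes 5 had opposite signs, in both directions, with a median change of -0.07. Among them Brca1 had -0.57 and 0.28 (adjusted p = 0.280), and Rad52, which anneals single strands, had 0.51 and -0.49 (adjusted p = 0.164). Brca2 had 0.10 and 0.04 and Palb2 0.12 and 0.05. Proliferation markers moved with the split: the mean difference over 27 such genes was -1.27 in the lower and 1.09 in the higher range, and 5 of them were called (Ccnb2, Cdc20, Aurka, Aurkb and Birc5, all with a negative difference in the lower range and a positive one in the higher). The part of proliferation in the repair gene values was not tested.

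Repair genes outside the 42 were read in the same way. In this comparison 1.86% of all tested genes were called and 20.2% had an unadjusted p under 0.05. Of 29 tested genes of break and crosslink repair 11 had an unadjusted p under 0.05 and 3 were called, Rad51d, Rpa2 and Mcm9, all with lower p38a-lox values in the lower range and higher ones in the higher range. Of 34 excision and mismatch repair genes 18 had an unadjusted p under 0.05 and 5 were called. Neil1, Gtf2h4, Rfc1 and Rfc2 had the same signs as Xrcc6, whereas Polb, the polymerase that fills the gap in base excision repair, had 2.11 in the lower and -0.73 in the higher range (change -2.84 ± 0.34, adjusted p = 0.0389). Of 20 checkpoint genes and 26 p53 targets 0 were called in limma, and 6 and 3 had an unadjusted p under 0.05.

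**Figure D2:**
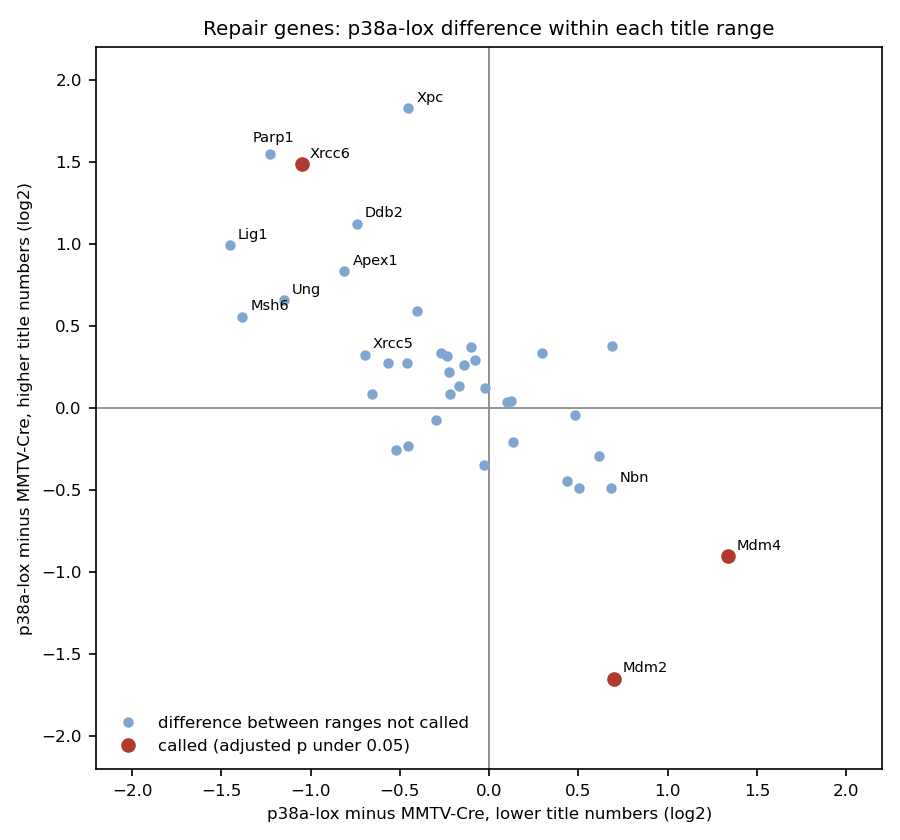
Each point is 1 of the 38 tested genes; the horizontal axis gives p38a-lox minus MMTV-Cre (log2) in arrays with lower title numbers and the vertical axis the same difference in arrays with higher title numbers, from 2 arrays per group and range. Larger red points mark Mdm2, Mdm4 and Xrcc6, called for the difference between ranges; named genes differ by more than 1, and 30 genes have opposite signs.

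The comparison of p38a-lox PyMT with PyMT does the same in cells that carry the oncogene. Mapk14 differed there by 0.03 ± 0.42 (adjusted p = 0.999 in limma), so a lower signal of the targeted gene was not seen. None of the 38 genes passed the test in p38a-lox PyMT against PyMT arrays, 21 had higher and 17 lower estimates, and the median was 0.02, beside -0.04 over all tested genes. In limma 0% of all tested genes were called. An unadjusted p under 0.05 was reached by 0 of 38, against 3.58% of all genes tested. The groups were fully separated for 2 of the 38, Lig1 and Xpc, against 2.55% of all tested genes.

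Lig1 read 8.44, 8.85, 8.70 and 9.21 in p38a-lox PyMT arrays, against 8.26, 8.39, 8.39 and 8.06 in PyMT arrays. Every p38a-lox PyMT array lay above every PyMT array, with a difference of 0.53 (95% interval -0.34 to 1.39, adjusted p = 0.999 in limma). Xpc read 6.38, 5.96, 6.39 and 6.33 in p38a-lox PyMT arrays, against 5.88, 5.61, 5.73 and 5.71 in PyMT arrays, a difference of 0.54 (-0.27 to 1.34). The genes with the smallest p overlapped. Nbn, the adaptor of the Mre11-Rad50-Nbn complex that holds broken ends, read 5.65, 5.29, 5.68 and 6.11 in p38a-lox PyMT arrays, against 4.58, 5.41, 5.54 and 5.10 in PyMT arrays, and its difference was 0.53 (-0.03 to 1.09). Xrcc6 differed by 0.77 (-0.13 to 1.66) and Brca1, the ubiquitin ligase of homologous recombination, by 0.38 (-0.07 to 0.82). The less bright probe set of Xrcc6 gave -0.10, and those of Brca1 gave 0.36, 0.03 and -0.01. Xrcc3 differed by 0.22 (-0.11 to 0.55) and Ercc1, a nuclease subunit of nucleotide excision repair, by -0.38 (-0.95 to 0.19). The other probe sets of Ercc1 gave 0.03, 0.07 and -0.08, the first of them nearly as bright. For the 7 genes just named the difference kept its sign in both title ranges, although the higher range holds only 1 PyMT array.

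The interaction, which asks whether the p38a-lox difference itself changed with PyMT, called 0 of the 38 genes. In limma 0% of all tested genes were called, and an unadjusted p under 0.05 was reached by 0 of 38, against 2.82% of all. Estimates were above 0 for 24 and below 0 for 14 of the genes. With the 4 higher-range arrays left out it again called 0, and 6 of 38 had an unadjusted p under 0.05, against 9.88% of all; there 15 of the 38 estimates had the opposite sign, among them Nbn (-0.15), and Lig1 stood at 1.98. The smallest p over all 16 arrays belonged to Xrcc3 (0.41, 95% interval -0.06 to 0.88, adjusted p = 0.992 in limma). Next came Brca1 (0.52, -0.11 to 1.15), Chek2 (-0.38, -0.85 to 0.09), Lig1 (0.76, -0.46 to 1.97) and Nbn (0.43, -0.36 to 1.22). These intervals include 0 and also changes of more than 0.4, so the arrays do not show that p38a-lox acts alike with and without PyMT. The less bright probe sets of Brca1 gave interaction estimates of 0.15, 0.03 and 0.02.

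**Figure D3:**
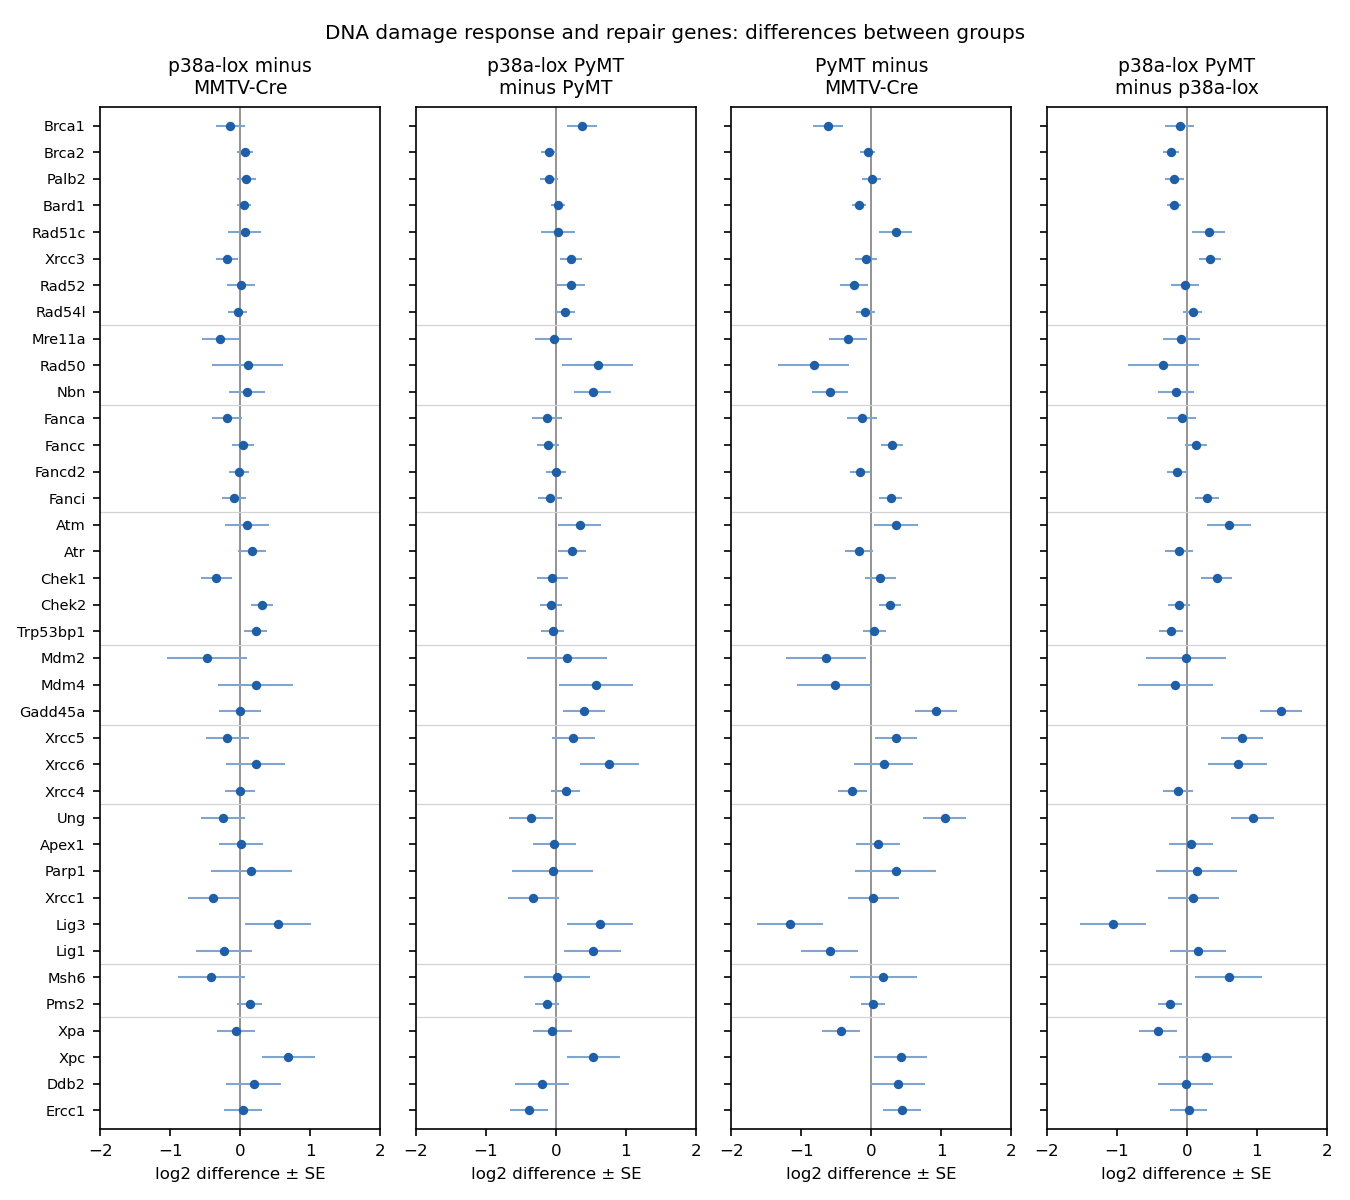
Log2 difference ± SE from limma (horizontal axes) of the 38 tested genes (rows, grouped by role) in 4 comparisons of 4 arrays against 4. Gadd45a (1.34 and 0.93) and Ung (0.94 and 1.05) stand to the right in the PyMT comparisons and Lig3 (-1.06 and -1.16) to the left; no gene passed the adjusted threshold.

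Of the 5 comparisons between groups, those across PyMT status held the largest differences among these genes. In PyMT against MMTV-Cre arrays 0 of 38 genes were called, against 1.26% of all tested genes in limma, and 5 had an unadjusted p under 0.05, against 13.8% of all. The arrays did not overlap for 1 gene, Ung, against 7.09% of all tested genes. In p38a-lox PyMT against p38a-lox arrays 0 of 38 were called, against 0.777% of all, and 4 had an unadjusted p under 0.05, against 12.2%. There the arrays did not overlap for 4 genes, Gadd45a, Lig3, Fanci and Bard1, against 8.16% of all tested genes. Median differences of the 38 genes were 0.01 in PyMT against MMTV-Cre and -0.01 in p38a-lox PyMT against p38a-lox, beside 0.03 and -0.02 over all genes tested. The pairs of groups here share arrays with the p38a-lox comparisons above. With the 4 higher-range arrays without PyMT left out, 0 of 38 genes were called in PyMT against MMTV-Cre, against 0.139% of all. In p38a-lox PyMT against p38a-lox 3 of 38 were then called, against 2.83% of all, namely Ung (1.53, adjusted p = 0.0184 in limma), Xrcc5 (1.29, adjusted p = 0.0487) and Xrcc6 (1.48, adjusted p = 0.0499).

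Gadd45a, a stress-inducible target of p53 that slows the cell cycle, had the smallest adjusted p. It read 10.88, 11.42, 11.23 and 11.31 in p38a-lox PyMT arrays, against 10.00, 10.20, 9.50 and 9.76 in p38a-lox arrays. Every p38a-lox PyMT array was above every p38a-lox array, and the difference was 1.34 ± 0.30, a 2.54-fold higher signal (95% interval 0.71 to 1.98 on the log2 scale, adjusted p = 0.0512 in limma). In PyMT arrays it read 10.36, 11.47, 10.52 and 10.87, against 8.94, 10.39, 10.21 and 9.95 in MMTV-Cre arrays, where 1 value of MMTV-Cre (10.39) exceeded 1 of PyMT (10.36). This difference was 0.93 ± 0.30 (adjusted p = 0.151). Within the title ranges the p38a-lox PyMT against p38a-lox difference was 1.05 in the lower and 1.64 in the higher range. Gadd45a passed the threshold in that comparison under 7 of 19 alternatives, with adjusted p from 0.000648 to 0.180 over all of them, and leaving out p38a-lox PyMT replicate 1 was among the 7 (adjusted p = 0.0433).

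Ung was the next. It read 6.39, 6.47, 6.67 and 6.67 in PyMT arrays, against 5.98, 5.66, 5.39 and 4.97 in MMTV-Cre arrays. All PyMT arrays were above all MMTV-Cre arrays, with a difference of 1.05 ± 0.31 (2.07-fold, adjusted p = 0.116). In p38a-lox PyMT arrays it read 5.65, 6.25, 6.62 and 6.27, against 4.54, 4.79, 6.08 and 5.59 in p38a-lox arrays. These overlapped, and the difference was 0.94 ± 0.31 (adjusted p = 0.193).

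Lig3, the ligase of single-strand break repair in nucleus and mitochondria, had lower estimates with PyMT. It read 8.50, 9.26, 8.72 and 8.88 in p38a-lox PyMT arrays, against 10.07, 9.67, 10.34 and 9.52 in p38a-lox arrays. The groups did not overlap, and the difference was -1.06 ± 0.47 (adjusted p = 0.375). In PyMT arrays it read 8.42, 9.16, 7.91 and 7.34, against 10.29, 8.08, 8.75 and 10.35 in MMTV-Cre arrays, where the difference was -1.16 ± 0.47 (adjusted p = 0.279). Lig3 has 5 probe sets, and they disagreed: the second brightest gave -0.71 in PyMT against MMTV-Cre and -0.96 in p38a-lox PyMT against p38a-lox, while the other 3 lay between -0.34 and 0.33 and between -0.10 and -0.05.

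**Figure D4:**
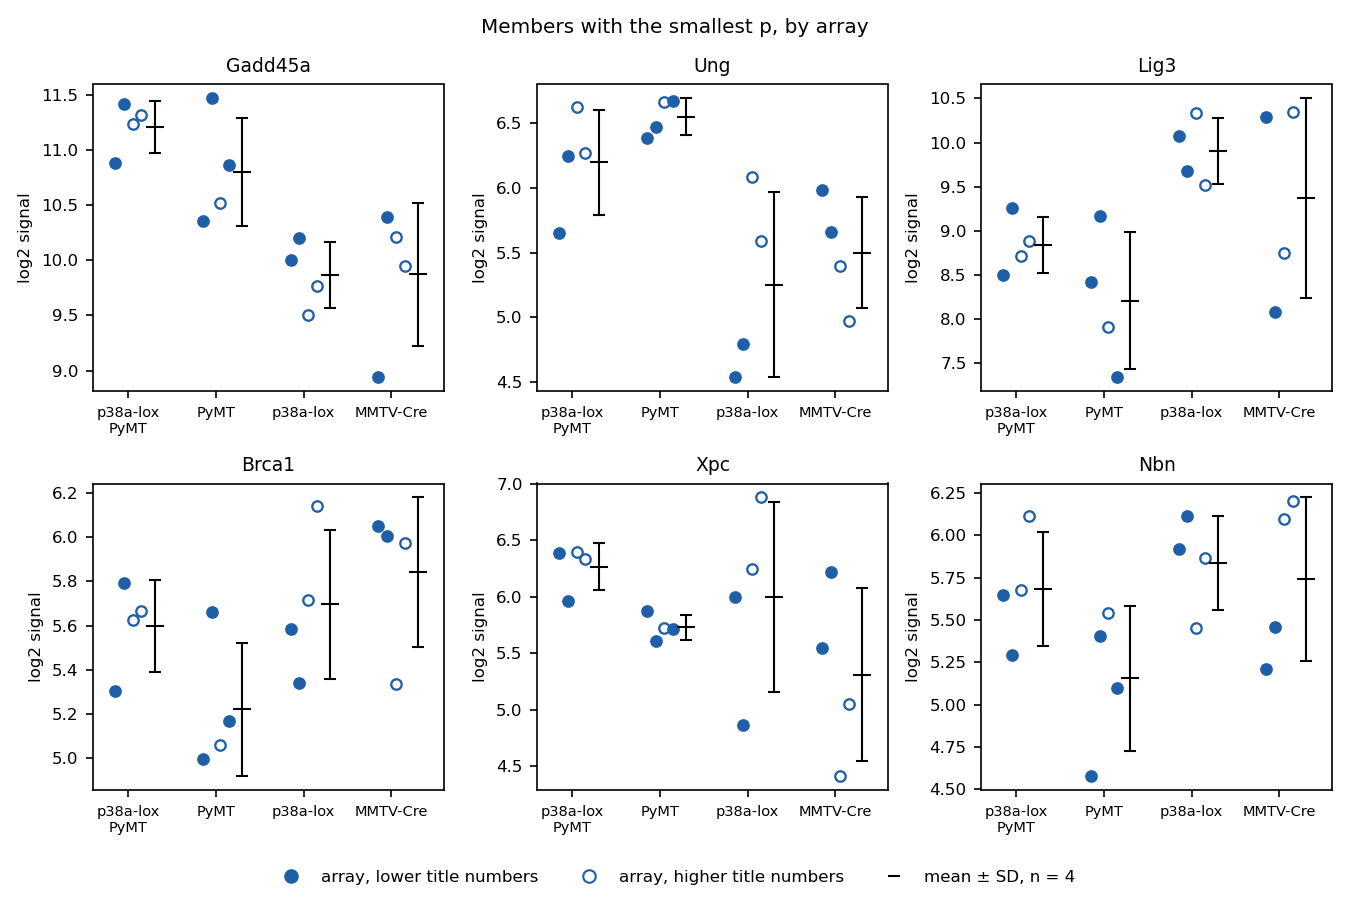
Log2 signal (vertical axes) of Gadd45a, Ung, Lig3, Brca1, Xpc and Nbn in the 16 arrays by group (horizontal axes); filled and open points are arrays with lower and higher title numbers, and bars give the mean ± SD of 4 arrays. Gadd45a lies between 10.88 and 11.42 in p38a-lox PyMT arrays and between 9.50 and 10.20 in p38a-lox arrays.

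Brca1 read 4.995, 5.66, 5.06 and 5.17 in PyMT arrays, against 6.05, 6.01, 5.34 and 5.97 in MMTV-Cre arrays. The values overlapped through 1 low MMTV-Cre array, and the difference was -0.62 ± 0.21 (adjusted p = 0.174). The less bright probe sets of Brca1 gave -0.33, 0.04 and 0.004. Without the 4 higher-range arrays without PyMT the difference was -0.81 (adjusted p = 0.165 in limma). In p38a-lox PyMT against p38a-lox arrays Brca1 differed by -0.10 ± 0.21. Nbn differed by -0.59 ± 0.26 in PyMT against MMTV-Cre (adjusted p = 0.333), and all 3 genes of the Mre11-Rad50-Nbn complex had lower estimates there, from -0.82 for Rad50 to -0.33 for Mre11a. The less bright probe sets gave -0.16 for Rad50 and -0.25 for Mre11a. Without the 4 higher-range arrays without PyMT the estimates were -0.18 for Nbn, -0.80 for Rad50 and -0.25 for Mre11a. Xrcc5, the Ku80 subunit, differed by 0.79 ± 0.30 (adjusted p = 0.288) and Xrcc3 by 0.33 ± 0.16 (adjusted p = 0.414) in p38a-lox PyMT against p38a-lox. With the same arrays left out, Xrcc5 stood at 1.29 and Xrcc3 at 0.15.

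Fanci and Bard1 did not overlap in that comparison, with small differences. Fanci, a Fanconi anaemia protein of crosslink repair, read 5.99, 6.15, 5.99 and 6.18 in p38a-lox PyMT arrays, against 5.72, 5.59, 5.99 and 5.86 in p38a-lox arrays (difference 0.29 ± 0.17), where the lowest p38a-lox PyMT array (5.9871) and the highest p38a-lox array (5.9864) almost met. Bard1, the partner of Brca1, read 3.73, 3.84, 3.69 and 3.77 in p38a-lox PyMT arrays, against 3.97, 3.92, 3.92 and 3.97 in p38a-lox arrays (difference -0.18 ± 0.10), close to the filter value of 3.67.

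Basal cell markers moved with PyMT status. The mean over 8 basal and myoepithelial markers was 7.33 to 8.14 in p38a-lox PyMT arrays and 7.12 to 8.00 in PyMT arrays, against 5.37 to 7.23 in p38a-lox and 5.76 to 7.57 in MMTV-Cre arrays. Of these 8 markers 1, Trp63, was called higher in PyMT than in MMTV-Cre arrays and 0 in p38a-lox PyMT against p38a-lox, with 6 and 7 higher estimates. Of 8 leukocyte markers 0 and 1 (Cd68) were called higher in the same comparisons. In PyMT against MMTV-Cre 6 had higher and 2 lower estimates, with a median of 0.05. In p38a-lox PyMT against p38a-lox 4 had higher and 4 lower estimates, with a median of -0.03. The mean of the leukocyte list ran from 5.08 to 5.24 in p38a-lox PyMT and 4.98 to 5.16 in PyMT arrays. It ran from 4.58 to 5.30 in p38a-lox and 4.78 to 5.10 in MMTV-Cre arrays. Of 5 fibroblast, 8 endothelial and 1 adipocyte markers, 0 were called in these comparisons. The part of other cells in the repair gene differences was not tested.

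Several of the genes followed proliferation from array to array. Values were taken as deviations from the group means over the 16 arrays and set against the mean of 27 proliferation markers. Of all tested genes outside these markers, the 38 included, 3.97% had a Pearson r of 0.7 or more. Of the 38, 8 (21.1%) had such an r. These were Brca1 (r = 0.90, Spearman rho = 0.89), Lig1 (0.89 and 0.87), Xrcc6, Apex1, Xrcc5, Parp1, Xpc and Msh6, and 5 of them stayed at 0.7 or more without p38a-lox replicate 4 and MMTV-Cre replicate 3, the arrays farthest from the median. Without these arrays r fell to 0.68 for Msh6, 0.63 for Parp1 and 0.55 for Xpc. The rho of Xpc over the 16 arrays was 0.54. Mdm2 (r = -0.52) and Mdm4 (r = -0.51) were at the low end. The values are a description, since the arrays share their normalisation and the title ranges, and no p is given. The proliferation list mean itself spanned 5.50 to 7.39 over the arrays. The 27 markers gave 0 calls in each of the 5 comparisons between groups.

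**Figure D5:**
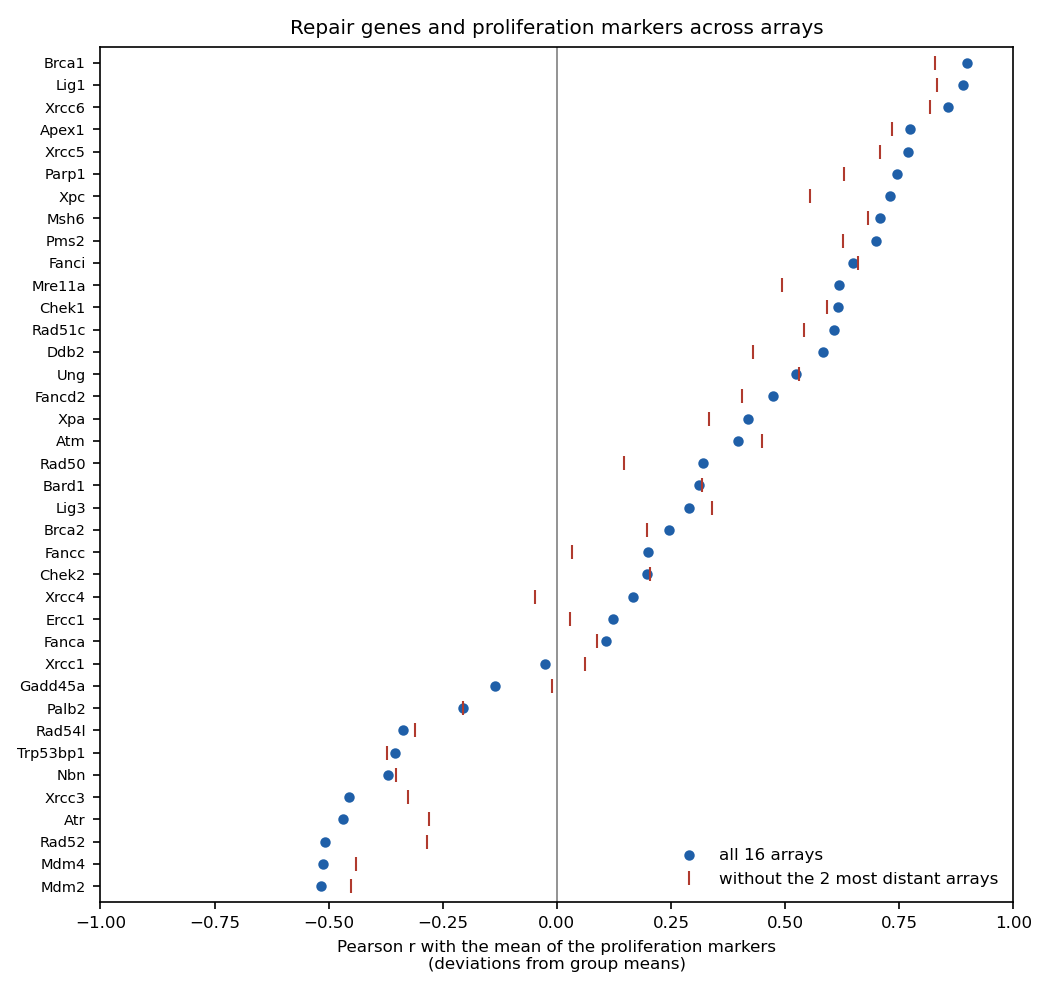
Pearson r (horizontal axis) between each of the 38 tested genes (rows) and the mean of 27 proliferation markers, computed on deviations from group means; points use 16 arrays and ticks leave out the 2 arrays farthest from the median. Brca1 (0.90) and Lig1 (0.89) are at the top, Mdm4 (-0.51) and Mdm2 (-0.52) at the bottom.

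Among the 703 pairs of the 38 genes, Mdm2 and Mdm4 had the highest within-group correlation (r = 0.91, rho = 0.88, n = 16 arrays; 0.83 without p38a-lox replicate 1 and p38a-lox PyMT replicate 1). Parp1 and Ddb2 followed (r = 0.87), then Apex1 and Lig1 (r = 0.87). Atr, the kinase of replication stress, ran with Mdm2 (r = 0.85) and against Ddb2 (r = -0.84). These pairs were picked by their values and are given as a description.

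In the 5 comparisons between groups, 1 of the 29 further genes of break and crosslink repair was called, the cohesin subunit Rad21, in PyMT against MMTV-Cre, where 1.26% of all tested genes were called. At an unadjusted p under 0.05 stood 7 of the 29 there, against 13.8% of all. It read 7.63, 8.78, 7.99 and 7.46 in PyMT arrays, against 9.18, 8.97, 9.15 and 9.25 in MMTV-Cre arrays. Rad21 fell by 1.17 ± 0.24 in PyMT arrays (adjusted p = 0.0304 in limma), and all PyMT arrays lay below all MMTV-Cre arrays. The call was lost under 10 of 19 alternatives, with the mean of its 3 probe sets (-0.53, adjusted p = 0.425), with only the arrays compared (adjusted p = 0.128), without the higher-range arrays without PyMT (-1.11, adjusted p = 0.218) and without MMTV-Cre replicate 1, 3 or 4 or PyMT replicate 1, 3 or 4 (estimates -1.001 to -1.18), PyMT replicate 4 also together with p38a-lox replicate 2, and the estimate kept its sign throughout. In p38a-lox PyMT against p38a-lox its difference was -0.64 ± 0.24 (adjusted p = 0.274). Of 20 further checkpoint genes and 34 further excision and mismatch repair genes 0 were called in limma in any comparison between groups. At an unadjusted p under 0.05 stood 3 and 4 of them in each comparison across PyMT status. The shares of all tested genes there were 13.8% and 12.2%. In p38a-lox against MMTV-Cre it was 0 and 0, against 4.79% of all. In p38a-lox PyMT against PyMT it was 2 and 1, against 3.58%, and in the interaction 1 and 1, against 2.82%.

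Of 26 tested p53 target genes 0 were called in any of the 5 comparisons, while 9 had an unadjusted p under 0.05 in p38a-lox PyMT against p38a-lox, where 12.2% of all tested genes had one, and 4 in PyMT against MMTV-Cre, against 13.8%. The nearest to the threshold there were Sesn1, a stress-inducible regulator of growth signalling (-1.04 ± 0.25, adjusted p = 0.0667), and Perp, a desmosomal and apoptotic protein (0.99 ± 0.25, adjusted p = 0.0778). In PyMT against MMTV-Cre it was Trp53inp1, which promotes p53-dependent death (-2.44 ± 0.62, adjusted p = 0.0712). Estimates of the 26 genes pointed both ways, with 16 higher and 10 lower in p38a-lox PyMT against p38a-lox and 15 higher and 11 lower in PyMT against MMTV-Cre.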

How the data were processed

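Log2 signals of 45141 probe sets on 16 arrays were made with RMA by the authors, per the submitters' processing notes; its version and settings are not stated. Because RMA includes quantile normalisation, shifts in total RNA cannot be read from the deposited log2 values. Array medians were 4.63 to 4.88. The number of arrays limits the precision. In bulk samples fewer cells of a type and less RNA per cell cannot be told apart.

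Probe sets were named from the platform annotation (29449 listed, 28898 with 1 symbol). Genes were tested where their mean reached 3.67, the value at percentile 25 of the whole table. limma 3.58.1 in R 4.3.3 fitted 1 model over all 16 arrays (12 residual and 2.83 prior degrees of freedom) with 5 two-sided contrasts: p38a-lox against MMTV-Cre, p38a-lox PyMT against PyMT, their interaction, PyMT against MMTV-Cre and p38a-lox PyMT against p38a-lox. Calls were made at 0.05 after Benjamini-Hochberg adjustment across 14410 genes. Errors after ± are the SE for differences and the SD of 4 arrays for means. The procedure was tested on simulated data.

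The 42 genes, the other lists and the rule for naming genes were chosen with earlier results of these data known. Called genes were named in each comparison and, where fewer than 5 were called, the 5 with the smallest p, together with genes whose arrays did not overlap, which were added after their values were seen; of each other list up to 3 genes with the smallest p, and called markers. The comparison of title number ranges, and the fits without the 4 higher-range arrays without PyMT, were added after the data were seen. Replicate numbers follow accession order and pair no arrays. Alternatives were no filter, a median filter, averaging a gene's probe sets, limma's trend and robust settings, repeating the quantile normalisation, median centring, array weights, the title range as a covariate, fitting only the arrays compared, and leaving out each array or p38a-lox replicate 2 and PyMT replicate 4 together.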

Additional observations from a re-analysis of the deposited data

Results flagged for a closer look

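In 7 of 160 sets of 4 arrays (40 genes in 4 groups) 1 array stood apart from the other 3 by Dixon's ratio, where chance gives about 8. Brca1 read 5.34 in MMTV-Cre replicate 3, against 5.97 to 6.05 in the other 3 arrays. Mdm2 read 9.44 in p38a-lox PyMT replicate 1, against 7.69 to 7.76. In PyMT replicate 2, Fanca read 5.86 against 6.48 to 6.59, Atr 4.95 against 4.39 to 4.44, and Pms2 6.11 against 5.47 to 5.55. Xpc read 5.96 in p38a-lox PyMT replicate 2, against 6.33 to 6.39. Ercc1 read 6.76 in p38a-lox replicate 1, against 7.68 to 7.87.

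The p38a-lox difference without PyMT differed between the higher and the lower range of title numbers, by a test of the difference itself, for Mdm2 (-2.35), Mdm4 (-2.24) and Xrcc6 (2.53). Mapk14 differed by 2.24 in the higher range, against the labels, and by -0.69 in the lower range. Whether labels were exchanged in the higher range, which would turn the signs there, was not tested.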

How the results depend on the processing

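No gene of the 38 was called under any alternative in p38a-lox against MMTV-Cre, p38a-lox PyMT against PyMT or the interaction. In PyMT against MMTV-Cre array weights called 4 (Brca1, Nbn, Fanci and Ung, among 1268 genes in all, where 182 were called without weights). In p38a-lox PyMT against p38a-lox 1 gene, Gadd45a, was called with the filter at the median, the mean of probe sets, trend and robust options, median centring and only the arrays compared, 3 (Gadd45a, Lig3 and Xpa) with array weights, which called 1416 genes in all against 112, 3 (Ung, Xrcc5 and Xrcc6, among 408 in all) without the 4 arrays without PyMT in the higher title range, and 0 to 1 with an array left out. The count of 3 for the title ranges became 0 with the mean of probe sets, trend and robust options, array weights and all 16 arrays, 5 with median centring, and 0 to 4 with an array left out, where a cell of the design then holds 1 array that is assumed to vary like the others. Calls over all tested genes are given only for array weights and for the fits without the 4 arrays without PyMT in the higher title range. Under the other alternatives a change in the count among the 38 genes cannot be set beside the change over all genes. Of the 25 named estimates in the 5 comparisons, 22 kept their sign under every alternative run. Trp53bp1 in p38a-lox against MMTV-Cre did not (lowest -0.01), and without those 4 arrays, an alternative added after the data were seen, nor did Xpc there (-0.45) or Nbn in the interaction (-0.15). Causes were not tested. With 4 arrays a group and a median SE of 0.26 for the 38 genes, small differences could not be detected. No paired analysis was possible because the labels give no shared replicate numbers.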
